A study of Mus musculus with 31 samples.

Results

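Interferon-stimulated genes are the genes that a cell switches on when interferon, the antiviral cytokine, reaches its receptors. The 9 described here were taken by symbol from the 48795 genes of a mouse brain count table: Ifit1, Ifit3, Isg15, Irf7, Irf9, Oasl2, Bst2, Rsad2 and Usp18. All 9 passed the filter on low counts that left 19529 genes for testing. The table holds 31 libraries of total RNA from half-brain homogenates, 13 labelled control and 18 labelled deltamethrin, a pyrethroid insecticide that keeps voltage-gated sodium channels open. The series asked what exposure to this agent during development does to transcription in the brain. The labels name the agent and the tissue of each library, and they give no strain, sex, age, dose, litter, pooling of animals, time of collection or batch. What the controls received is not stated either, so the libraries of a group are replicates only as separately listed samples, and p-values measure the spread between them.

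Type I interferons bind a receptor of the subunits IFNAR1 and IFNAR2, whose kinases JAK1 and TYK2 phosphorylate STAT transcription factors. These join IRF9 to form the complex ISGF3, which binds interferon-stimulated response elements in promoters. In an uninfected brain these genes are transcribed at a low tonic level, and they rise steeply in infection, ageing and nucleic acid sensing disorders. IRF9 is the DNA-binding part of that complex, and IRF7 drives a later wave of interferon transcription. IFIT1 binds viral RNA, and IFIT3 belongs to the same family. RSAD2 (viperin) makes a chain-terminating nucleotide, OASL2 belongs to the oligoadenylate synthetase family, and BST2 (tetherin) holds budding virus at the cell surface. ISG15 is a ubiquitin-like protein that is attached to other proteins, and USP18 removes it and also damps signalling at the receptor.

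Promoter sequence is shown for the genes that carry the core of the response element, since the results ask how far the genes move together. A pair of GAAA copies with any 2 bases between them, or its reverse complement (TTTC copies spaced alike), was searched on both strands, with overlapping matches counted, in the 250 bases before each RefSeq start site (GRCm38.p6). It was found for 5 of the 8 genes with an entry (Isg15, Bst2, Rsad2, Ifit1 and Ifit3). Counted by promoter it was in 5 of their 9, beside 2.98% of all 32851 promoters of that length. Irf7, Irf9 and Oasl2 have no match in these windows, and Usp18 has no entry. Capitals mark the matched letters, each line runs 5′ to 3′ on the gene's strand, and the coordinates are those of the stretch printed.
Isg15, chr4:156200845-156200926, minus strand: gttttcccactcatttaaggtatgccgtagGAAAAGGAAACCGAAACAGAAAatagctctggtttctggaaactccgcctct
Bst2, chr8:71537557-71537632, minus strand: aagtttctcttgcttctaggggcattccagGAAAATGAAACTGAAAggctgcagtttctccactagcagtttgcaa
Rsad2, chr12:26456533-26456602, minus strand: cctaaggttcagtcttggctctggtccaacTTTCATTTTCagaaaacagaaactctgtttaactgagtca
Ifit3, chr19:34583343-34583446, plus strand: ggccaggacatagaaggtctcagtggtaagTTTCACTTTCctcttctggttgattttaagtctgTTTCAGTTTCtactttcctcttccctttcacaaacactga
Ifit1, chr19:34640755-34640843, plus strand: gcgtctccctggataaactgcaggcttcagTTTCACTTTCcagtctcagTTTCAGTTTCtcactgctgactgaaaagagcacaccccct
Isg15 has 3 overlapping matches 57 to 78 bases before its start, Bst2 has 2 overlapping matches, Ifit1 and Ifit3 have 2 separate matches each, and Rsad2 has 1. A match describes letters only and shows no binding.

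The libraries held 17570311 to 38680621 counts. Mitochondrial ribosomal RNA (the genes mt-Rnr1 and mt-Rnr2) took 7.32 to 40.2% of the counts, with the highest share in control replicate 2, which is also the shallowest library. No pair of libraries agreed within sampling noise (smallest chi-square per degree of freedom 6.35 over 231 pairs within groups and 8.02 over 234 between groups). Markers of neurons, astrocytes, oligodendrocytes, microglia and endothelium were all tested in each list, which fits the label brain, whereas S100a8, Cd3e, Ngp and Camp of the blood leukocyte list had a median under 0.1 CPM, a count per 1000000 counts of the scaled library. Of the 8 genes in the leukocyte list 2 were tested, Ly6c2 and Lyz2, and Lyz2 had means of 5.25 CPM in control and 5.47 CPM in deltamethrin.

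All 9 genes were detected in all 31 libraries, at low levels. Rsad2 had 7 to 48 counts per library, Usp18 9 to 37, Isg15 13 to 47, Oasl2 12 to 107, Bst2 19 to 79, Ifit1 19 to 84, Irf7 49 to 113, Irf9 71 to 241 and Ifit3 93 to 337. At such counts, sampling alone gives a coefficient of variation of 21.2% for Usp18 and 19.7% for Rsad2, against 6.45% for Ifit3. Levels of different genes were compared per kilobase of annotated exon. On that scale Ifit3 was highest, with 4.42 ± 0.800 CPM per kilobase (SD, n = 31), at the 59.7th percentile of the genes tested. Bst2 followed with 1.95 ± 0.594, then Isg15 with 1.21 ± 0.316 and Irf9 with 1.11 ± 0.145. Irf7 had 0.665 ± 0.209 and Ifit1 0.562 ± 0.127 CPM per kilobase. The lowest were Usp18 with 0.257 ± 0.0621, Oasl2 with 0.216 ± 0.0779 and Rsad2 with 0.189 ± 0.0528, the last at the 6.33rd percentile. Ifit3 exceeded Bst2 in 31 of 31 libraries, and Bst2 exceeded Isg15, Irf9 exceeded Irf7 and Ifit1 exceeded Usp18 in 30 each. The other neighbours in this order changed places often: Isg15 was above Irf9 in 19 of 31 libraries, Irf7 above Ifit1 in 20, Usp18 above Oasl2 in 21 and Oasl2 above Rsad2 in 20.

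**Figure D1:**
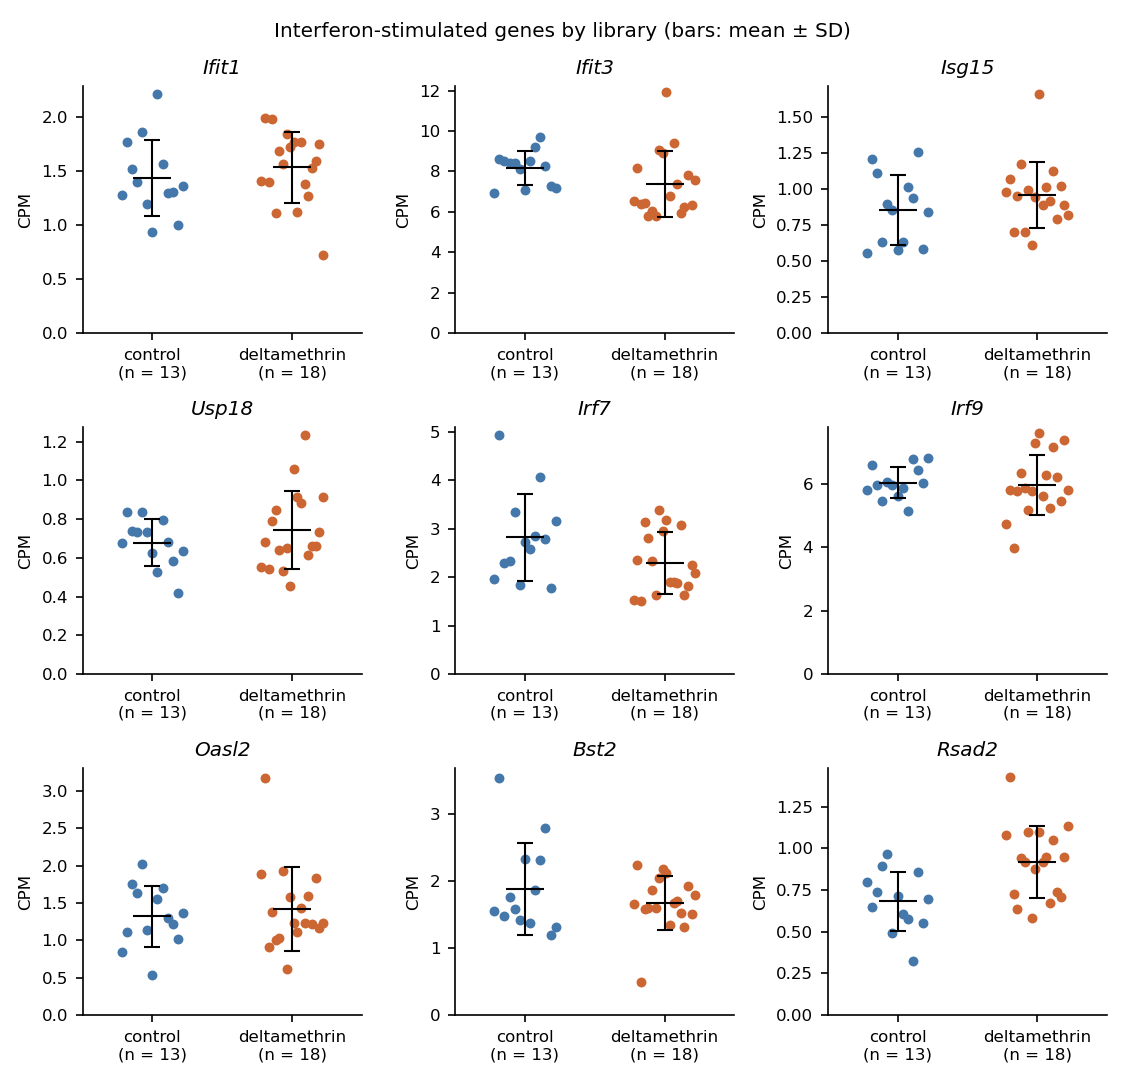
CPM of each gene (y axis, linear, from 0) in the 13 control and 18 deltamethrin libraries, 1 point a library, with the mean and SD as bars. The groups overlap for each of the 9 genes; Rsad2 shows the clearest shift, with 6 deltamethrin libraries above every control library.

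None of the 9 differences between deltamethrin and control brains passed adjustment over all genes. The number past an adjusted p-value of 0.05 was 0 of 9 by edgeR's quasi-likelihood test, as it was by DESeq2 and limma voom, beside 0% of all genes tested. Before adjustment Rsad2 alone was past 0.05 (11.1% of the 9), beside 4.37% of all genes tested (2% higher and 2.37% lower). DESeq2 likewise gave 1 unadjusted and voom 2, the second being Ifit3. Of the 9 fold changes 5 were positive and 4 negative, with a median of 0.09 on the log2 scale, beside 0.0014 for all genes tested. The median of the 9 is itself unsteady: it was -0.0087 without deltamethrin replicate 2, and -0.14 when a mean count of at least 50 was required, which left Ifit3, Irf7, Irf9 and Bst2. The 95% intervals of 8 of the 9 include 0, and taken over the 9 they run from a fold of 0.671 to 1.64. In a homogenate, fewer cells of a type and less RNA per cell cannot be told apart.

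Rsad2, the radical-SAM enzyme viperin (chromosome 12, 26442746 to 26456452, minus strand; coordinates of GENCODE M21 on GRCm38 throughout), had the largest difference of the 9. Its lowest, median and highest control values were 0.324, 0.696 and 0.963 CPM, and its deltamethrin values 0.580, 0.930 and 1.43 CPM. The groups overlapped, with 15 of 18 deltamethrin libraries above the control median, 6 above every control and 4 controls below every deltamethrin library. The mean was 0.681 ± 0.176 CPM in control (SD, n = 13) and 0.916 ± 0.215 CPM in deltamethrin (SD, n = 18). The log2 fold change was 0.43 ± 0.14 (SE), a fold of 1.35 (95% interval 1.10 to 1.64), with p = 0.00439 unadjusted and 0.813 adjusted (edgeR). Leaving out any 1 of the 31 libraries kept the unadjusted p-value under 0.05 (log2 fold change 0.37 to 0.48), as did the 9 alternatives that tested the gene. Cmpk2, a nucleotide kinase whose gene lies 12752 bases away and is induced with Rsad2 by interferon, had 22.4 and 22.6 CPM and a log2 fold change of 0.013 ± 0.051 (adjusted p = 0.956, edgeR).

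Endothelial markers moved with Rsad2. Over the 31 libraries its Spearman rho with the mean of 6 endothelial markers was 0.535 (0.313 within control and 0.61 within deltamethrin), a description over libraries that share their scaling. Of those markers 5 of 6 had a positive fold change and 1 had an unadjusted p-value under 0.05 (Cldn5, a tight junction protein, log2 fold change 0.21 ± 0.067, p = 0.00407, edgeR). Their summed level ran from 97.4 to 153 CPM in control and from 106 to 171 CPM in deltamethrin. With that mean as a covariate, a fit added after the data were seen, the Rsad2 log2 fold change was 0.34 ± 0.13 (unadjusted p = 0.0153, adjusted 0.9998, edgeR). Its rho was 0.458 with 4 meningeal markers, of which 4 of 4 had a positive fold change and Dcn, a proteoglycan of fibroblasts, one of 0.29 ± 0.094 (p = 0.00417, edgeR). Their summed level ran from 12.2 to 22.8 CPM in control and from 13.9 to 31.9 CPM in deltamethrin. Its rho was 0.435 with the 2 tested of 5 border macrophage markers, and their part in the result was not tested.

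The other antiviral effectors pointed in different directions, none past the threshold. Ifit3, of the same family as Ifit1 (chromosome 19, 34583531 to 34588731, plus strand), ran over 6.95, 8.41 and 9.68 CPM in control (lowest, median, highest) and over 5.80, 6.66 and 11.9 CPM in deltamethrin. Deltamethrin libraries were spread to both sides of the controls, 10 below the lowest and 1, replicate 10, above the highest. Its log2 fold change was -0.15 ± 0.089 (unadjusted p = 0.098, adjusted 0.813, edgeR). Without deltamethrin replicate 10 the unadjusted p was 0.0118. Its count is uncertain, because 31.7% of the 100-base stretches of its transcripts also occur in Ifit3b, a neighbouring copy with 4.76 and 4.69 CPM and a log2 fold change of -0.027 ± 0.097.

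Ifit1, which recognises the cap of viral RNA (chromosome 19, 34640871 to 34650009, plus strand), ran over 0.936, 1.36 and 2.21 CPM in control and 0.724, 1.57 and 1.99 CPM in deltamethrin. The groups lay over each other, and the log2 fold change was 0.09 ± 0.13 (unadjusted p = 0.476). Ifit1 shares 3.3% of its stretches with Ifit1bl2. Oasl2 (chromosome 5, 114896936 to 114912234, plus strand) ran over 0.535, 1.30 and 2.02 CPM in control and 0.614, 1.24 and 3.18 CPM in deltamethrin. Its log2 fold change of 0.09 ± 0.18 (unadjusted p = 0.610) rested on deltamethrin replicate 2, the highest library, and was -0.011 without it. It was -0.046 with the endothelial covariate. Oasl2 had a rho of 0.46 with the endothelial markers and 0.496 with 5 astrocyte markers. Bst2 (chromosome 8, 71534255 to 71537456, minus strand) ran over 1.19, 1.57 and 3.53 CPM in control and 0.492, 1.66 and 2.23 CPM in deltamethrin. Control replicate 2 was its highest library and deltamethrin replicate 3 its lowest, a 7.17-fold range that was the widest of the 9. Its log2 fold change was -0.13 ± 0.16 (unadjusted p = 0.393), although 13 of 18 deltamethrin libraries lay above the control median. It was -0.053 without control replicate 2, -0.071 without deltamethrin replicate 3, -0.074 without control replicate 11 and -0.065 without scaling factors.

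Isg15 and Usp18, the modifier and its protease, had fold changes of the same sign that did not pass the threshold. Isg15 (chromosome 4, 156199424 to 156200818, minus strand) ran over 0.559, 0.858 and 1.26 CPM in control and 0.614, 0.949 and 1.66 CPM in deltamethrin. In deltamethrin 13 of 18 libraries were above the control median, and 3 controls were below every deltamethrin library. The log2 fold change was 0.18 ± 0.14 (unadjusted p = 0.193, adjusted 0.813, edgeR). Usp18 (chromosome 6, 121245906 to 121270917, plus strand) ran over 0.416, 0.684 and 0.836 CPM in control and 0.457, 0.671 and 1.24 CPM in deltamethrin. The medians were nearly equal, while 6 deltamethrin libraries exceeded every control. The log2 fold change was 0.13 ± 0.14 (unadjusted p = 0.326, adjusted 0.835, edgeR).

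The transcription factors had negative fold changes, neither past the threshold, and Irf9 had the smallest standard error of the 9. Irf9 (chromosome 14, 55603571 to 55610030, plus strand) ran over 5.14, 5.96 and 6.81 CPM in control and 3.96, 5.79 and 7.60 CPM in deltamethrin. The deltamethrin libraries straddled the controls, 4 above and 2 below all of them. The log2 fold change was -0.016 ± 0.074 (95% interval -0.17 to 0.14, unadjusted p = 0.836), and its sign turned without scaling factors (0.028). Irf9 overlaps the gene Rnf31 on the same strand over 123 exonic bases, so a few of its counts are uncertain. Irf7 (chromosome 7, 141262706 to 141266481, minus strand) ran over 1.77, 2.72 and 4.92 CPM in control and 1.503, 2.16 and 3.38 CPM in deltamethrin. Of the deltamethrin libraries 12 of 18 were below the control median and 4 below every control, while 2 controls were above every deltamethrin library. The log2 fold change was -0.28 ± 0.14 (95% interval -0.58 to 0.011, unadjusted p = 0.0585, adjusted 0.813, edgeR). With the mitochondrial rRNA share as a covariate it was -0.28 ± 0.12 (unadjusted p = 0.0266, adjusted 0.515, edgeR), and without control replicate 2, its highest library, -0.21 ± 0.14 (p = 0.136, edgeR). Irf7 shares 45 exonic bases with Phrf1 on the opposite strand, and Usp18 shares 124 with Gm44148, which has 28 counts in all.

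**Figure D2:**
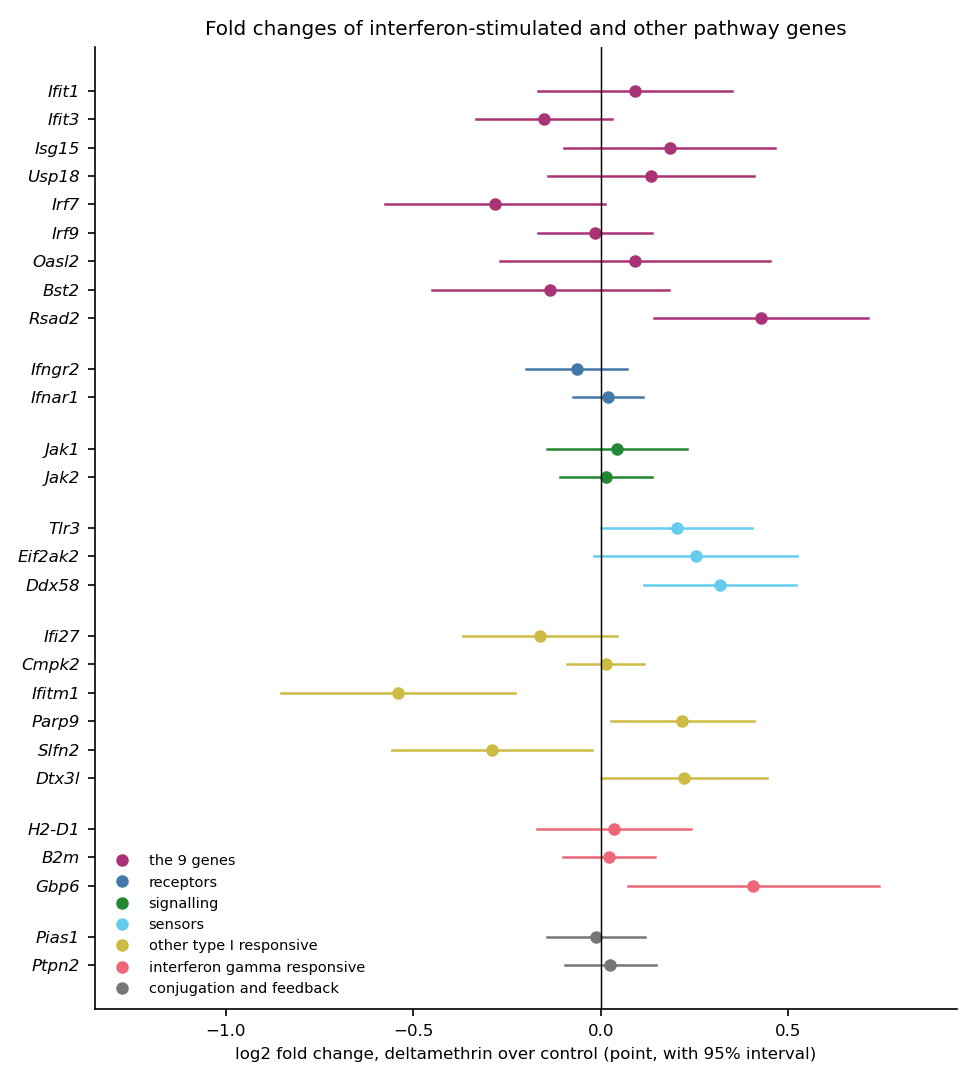
Log2 fold change of deltamethrin over control (x axis) with its 95% interval for the 9 genes and for the named genes of 6 pathway lists, coloured by list. The interval of Rsad2 (0.14 to 0.71) excludes 0 before adjustment and those of the other 8 include it; 0 genes shown passed adjustment over all genes.

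The wider pathway was followed with lists by role, 118 genes beside the 9, of which 84 were tested. None passed adjustment by edgeR, and 0 passed by DESeq2 or voom. Before adjustment 8 were past 0.05 (6 higher and 2 lower), or 9.52% beside 4.37% of all genes, and the list median was 0.022. That count rests on the processing, and so does the share of all genes. It was 5 with voom (5.95%, beside 4.34% of all genes) and 5 with a mean count of at least 50 (8.93% of 56 tested, beside 4.26%). With the endothelial covariate it was 3 (3.57%, beside 2.1%). It was 5 without control replicate 2 (beside 3.64% of all genes), control replicate 11 (2.85%), deltamethrin replicate 2 (3.1%) or deltamethrin replicate 7 (3.93%). The highest counts were 11 without deltamethrin replicate 5 (beside 5.67%) and 10 with no count filter (beside 5.1%) or without deltamethrin replicate 13 (4.12%) or 14 (6.24%).

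The ligands were close to silent. Of 21 interferon genes listed, 6 had no count in any library (Ifna1, Ifna9, Ifna14, Ifna15, Ifnl2 and Ifnl3), which over 959825599 counts allows up to 0.00313 per 1000000 counts for each (3 counts, counting error only). The 13 numbered Ifna genes had 20 counts among all libraries, Ifnb1, the first type I interferon made on sensing, had 1 and Ifng had 5. The highest ligands were Ifnz, with counts in 28 of 31 libraries, and Ifnk, the keratinocyte type I interferon, with counts in 23. Neither they nor any other ligand passed the filter for testing. Of 5 receptor genes tested 0 had an unadjusted p-value under 0.05 (beside 4.37% of all genes). The most abundant were Ifnar1 at 35.7 and 36.3 CPM (log2 fold change 0.020 ± 0.046) and Ifngr2, a subunit of the interferon gamma receptor, at 47.2 and 45.1 CPM (-0.065 ± 0.066). Il10rb, a subunit shared with interleukin receptors, was the lowest tested, at 3.01 and 3.21 CPM, and Ifnlr1, the lambda receptor subunit, was not tested.

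Of 11 signalling genes tested 1, not named here, was higher at an unadjusted p-value under 0.05 by edgeR (9.09%, beside 4.37% of all genes). The kinases Jak1 (log2 fold change 0.043 ± 0.092) and Jak2 (0.014 ± 0.061) lay close to 0. Of 10 nucleic acid sensors tested 2 had an unadjusted p-value under 0.05 (20%, beside 4.37% of all genes). Of the 10 fold changes 7 were positive, beside 50.5% of all genes, with a median of 0.13. Ddx58, the RNA sensor RIG-I, had 2.55 and 3.19 CPM and a log2 fold change of 0.32 ± 0.10 (p = 0.00307, adjusted 0.813, edgeR). Tlr3, the endosomal sensor of double-stranded RNA, had 6.47 and 7.46 CPM and 0.20 ± 0.099 (p = 0.0483, adjusted 0.813, edgeR). Eif2ak2, the kinase PKR, had 0.25 ± 0.13 (p = 0.0655).

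Of 30 other type I responsive genes tested, 2 were higher and 2 lower at an unadjusted p-value under 0.05, with a median of 0.015. Those genes are 13.3% of the list, beside 4.37% of all genes tested (2% higher and 2.37% lower). The higher pair was Parp9 (0.22 ± 0.094, p = 0.0264, edgeR) and Dtx3l (0.22 ± 0.11, p = 0.0490, edgeR), partners in an ADP-ribosylating complex whose genes overlap on opposite strands, so without strand information their counts cannot be fully separated. The lower pair was Ifitm1, a membrane protein that blocks virus entry (1.17 and 0.790 CPM, -0.54 ± 0.15, p = 0.00122, edgeR), and Slfn2 (-0.29 ± 0.13, p = 0.0340, edgeR). All 4 had an adjusted p of 0.813. The most abundant genes of this list were Ifi27 (28.2 and 25.1 CPM, log2 fold change -0.16 ± 0.10) and Cmpk2. Of 20 interferon gamma responsive genes tested, 1 was higher at an unadjusted p-value under 0.05 (5%, near the 4.37% of all genes). It was Gbp6, a guanylate-binding GTPase, with 0.706 and 0.947 CPM and 0.41 ± 0.16 (p = 0.0184, adjusted 0.813, edgeR). The most abundant interferon gamma responsive genes encode class I antigen presentation, H2-D1 (0.034 ± 0.10) and B2m (0.021 ± 0.060). Of 9 genes of ISG15 conjugation and feedback 0 had an unadjusted p-value under 0.05 (beside 4.37% of all genes), among them Pias1 (-0.012 ± 0.064) and Ptpn2 (0.025 ± 0.060).

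The spread of the 9 genes between libraries was mostly no wider than edgeR's trend for genes of like abundance. The biological coefficient of variation estimated by edgeR lay below the trend at the gene's abundance for 7 of the 9, as for Usp18 (16.1% against 31.8%), Rsad2 (17.9% against 30.9%) and Isg15 (18.3% against 30.3%). It lay above it for Oasl2 (30.6% against 28.1%) and Irf7 (25.3% against 24.3%). Irf9 was the steadiest, with 13.1% against 19.9%, and its highest library was 1.92 times its lowest. The median over all genes tested was 18.3%, at all abundances together. How many of those genes lay below the trend is not given here, so 7 of 9 is not read as a trait of these genes.

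**Figure D3:**
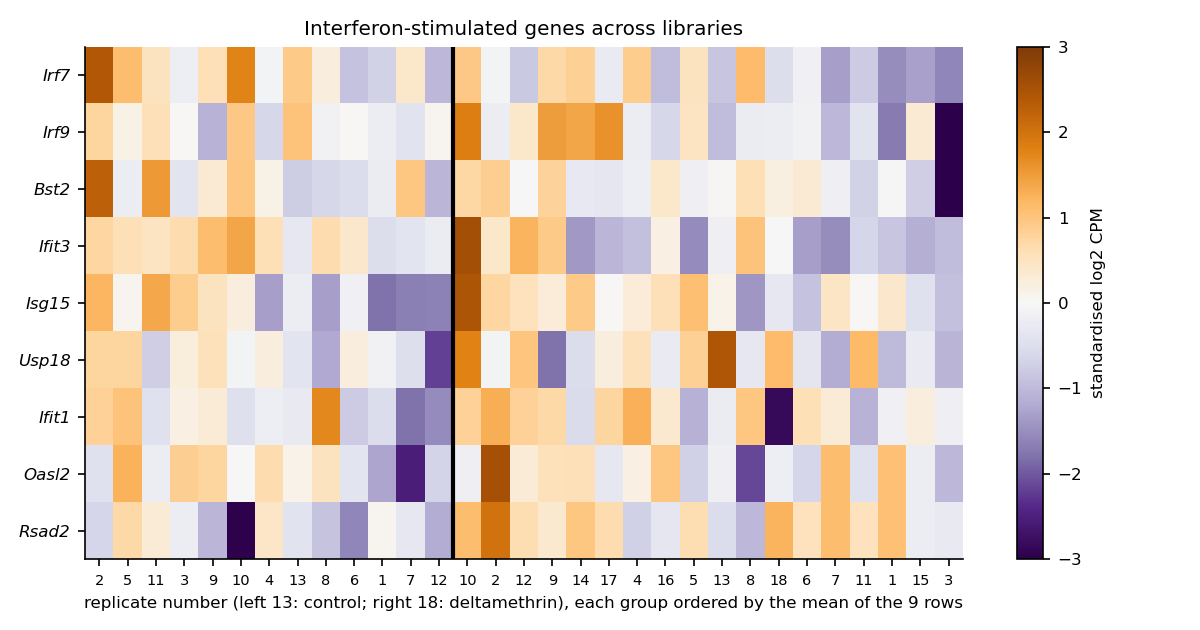
Standardised log2 CPM (colour) of the 9 genes (rows) in 31 libraries (columns, control left of the line and deltamethrin right), ordered in each group by the mean of the rows. Columns mostly mix colours: deltamethrin replicate 10 has 8 of 9 genes above the overall median and deltamethrin replicate 3 has 0.

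No library was above the median for all 9 genes. Deltamethrin replicates 9, 10 and 12 had 8 of 9 above it, and deltamethrin replicate 3 and control replicate 1 had 0. Deltamethrin replicate 10 was the highest library for Ifit3, Isg15 and Irf9, deltamethrin replicate 2 for Oasl2 and Rsad2, and control replicate 2 for Irf7 and Bst2. Deltamethrin replicate 3 was the lowest for Irf7, Irf9 and Bst2.

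The 9 genes were only loosely correlated with each other. Of the 36 pairs 31 had a positive Pearson r, with a median of 0.231 and a range from -0.247 to 0.596. Values for pairs of other genes in these libraries, which share their scaling, are not given here for comparison. After Benjamini-Hochberg adjustment over the 36 pairs, 2 passed 0.05 by r and 0 by Spearman's rho (permutation tests, 100000 resamples, two-sided). They were Irf7 with Bst2 (r = 0.596, permutation p = 3e-04, adjusted 0.0108; rho = 0.471, permutation p = 0.00843, adjusted 0.0758) and Irf7 with Irf9 (r = 0.579, permutation p = 0.00065, adjusted 0.0117; rho = 0.509, permutation p = 0.00392, adjusted 0.0758). Without the 2 libraries farthest from the Irf7 median these r were 0.461 and 0.563. Within control they were 0.692 and 0.508, and within deltamethrin 0.497 and 0.672. Irf9 with Bst2 had r = 0.471 (adjusted permutation p = 0.0847) but a rho of 0.0726, and r was 0.09998 without the 2 libraries farthest from the median. Rsad2 stood at the edge of the set, with r from -0.247 (Irf7) to 0.379 (Oasl2) over its 8 pairs. Isg15 had the highest r with the mean of the other 8 genes (0.634) and Rsad2 the lowest (0.092), given as a description.

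**Figure D4:**
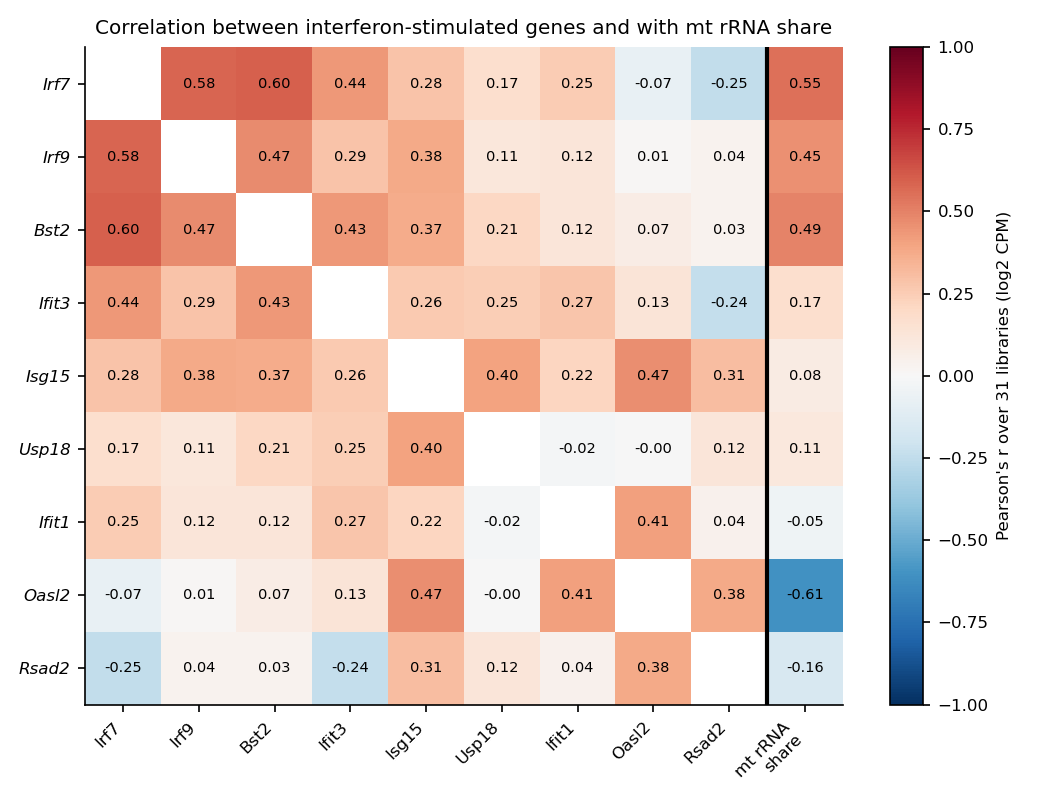
Pearson's r of log2 CPM over 31 libraries for each pair of the 9 genes, with r against the log2 mitochondrial rRNA share in the last column. The highest r are those of Irf7 with Bst2 (0.60) and with Irf9 (0.58), all 3 genes rise with the mitochondrial rRNA share, and Oasl2 falls with it (r = -0.61).

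Library composition moved with 4 of the 9 genes. How many of all genes tested did so is not given here, so 4 of 9 cannot be called more or fewer than usual. After adjustment over the 9, the log2 mitochondrial rRNA share was positively correlated with Irf7 (r = 0.555, permutation p = 0.00125, adjusted 0.00563; rho = 0.468, permutation p = 0.00896), Bst2 (r = 0.492, permutation p = 0.00562, adjusted 0.0169; rho = 0.428, permutation p = 0.0167) and Irf9 (r = 0.455, permutation p = 0.0107, adjusted 0.0241; rho = 0.467, permutation p = 0.00921). It was negatively correlated with Oasl2 (r = -0.609, permutation p = 0.00032, adjusted 0.00288; rho = -0.542, permutation p = 0.00172). Each of these rho had an adjusted p-value under 0.05 as well, the highest being 0.0375. Leaving out the 2 libraries whose share lay farthest from the median gave an r of 0.424 for Irf7, 0.304 for Bst2, 0.514 for Irf9 and -0.583 for Oasl2. Within control r was 0.386, 0.718, 0.416 and -0.680 in that order, and within deltamethrin 0.751, 0.283, 0.537 and -0.551. The other 5 genes had r between -0.160 and 0.171.

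Which pairs passed changed with the processing, and no test compared the correlations between settings. With the mitochondrial rRNA share regressed out, an alternative added after the data were seen, r fell to 0.445 for Irf7 with Bst2 and 0.441 for Irf7 with Irf9 (adjusted permutation p = 0.0909 for both). The pairs that then passed were Isg15 with Oasl2 (r = 0.650, adjusted permutation p = 0.00324) and Oasl2 with Bst2 (r = 0.541, adjusted permutation p = 0.0272), 0 of them shared with the first 2. Without scaling factors 3 other pairs passed, those of Oasl2 with Ifit1, Isg15 and Rsad2. There r was 0.453 for Irf7 with Bst2 and 0.361 for Irf7 with Irf9.

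**Figure D5:**
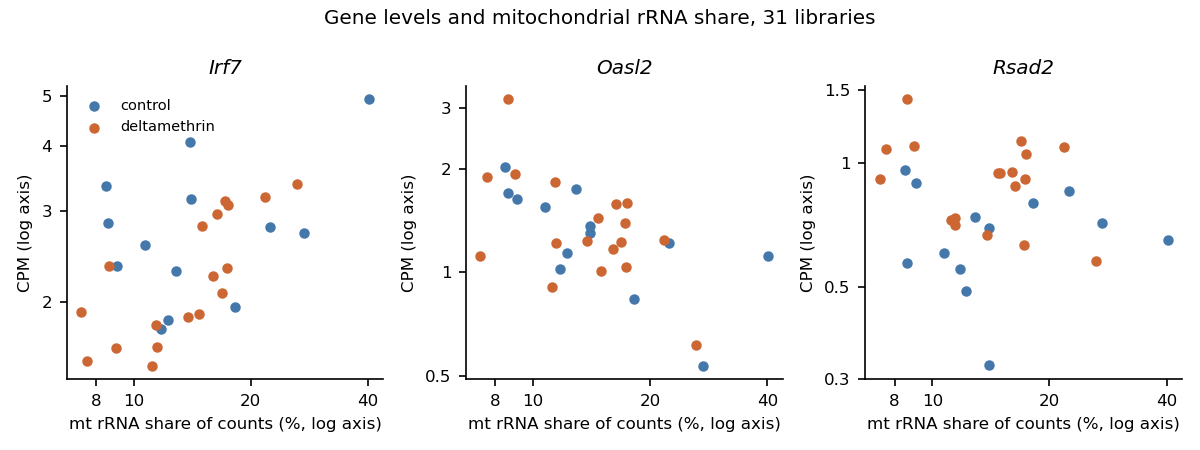
CPM (y axis, log) of Irf7, Oasl2 and Rsad2 against the mitochondrial rRNA share of counts (x axis, %, log), 1 point for each of 31 libraries, coloured by group. Irf7 rises (r = 0.555) and Oasl2 falls (r = -0.609) with the share in both groups, while Rsad2 shows little relation (r = -0.160).

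Cell type markers moved with some of the genes, given as descriptions over the 31 libraries. Irf7 had a rho of -0.712 with 4 neuronal markers (-0.676 within control and -0.771 within deltamethrin) and 0.613 with 5 erythroid markers. The erythroid genes summed to 492 to 1670 CPM in control and 380 to 1242 CPM in deltamethrin, with 0 of 5 fold changes positive and a median of -0.29, the same sign as Irf7. Bst2 had a rho of 0.546 with the erythroid markers. The mean of the 2 tested blood leukocyte markers had a rho of 0.588 with Irf7, 0.571 with Irf9 and -0.216 with Rsad2. Choroid plexus markers had 0 of 5 fold changes positive and a median of -0.25, with Ttr, a thyroid hormone carrier, at -0.46 ± 0.21 (p = 0.0360, edgeR) and Folr1, a folate receptor, at -0.49 ± 0.20 (p = 0.0163, edgeR). They summed to 260 to 1264 CPM in control and 241 to 712 CPM in deltamethrin, and their mean had a rho of 0.417 with Isg15 and 0.385 with Bst2. Ependymal markers had 0 of 4 fold changes positive, a median of -0.19, sums of 9.70 to 27.0 CPM in control and 9.22 to 17.7 CPM in deltamethrin, and a rho of 0.526 with Irf7. Astrocyte markers had 5 of 5 fold changes positive and a median of 0.13. Their mean had a rho of 0.496 with Oasl2, -0.471 with Irf7, -0.456 with Irf9 and -0.455 with Bst2. Microglial markers, from cells that express many interferon-stimulated genes, had a rho between -0.057 (Usp18) and 0.252 (Irf7). Their sum ran from 152 to 230 CPM in control and from 185 to 236 CPM in deltamethrin, and 1 of 8 had an unadjusted p-value under 0.05 (Tmem119, -0.15 ± 0.058, p = 0.0117, edgeR). The part of these cell contents in the gene differences was not tested.

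The 10 genes most like the 9 over the libraries were not on the pathway lists, which hold few of the genes ranked. Likeness was the Spearman rho with the mean of the 9 genes' standardised log2 CPM over 31 libraries, for the other 19520 genes tested. The 10 highest were Mog (0.718), Rftn1 (0.716), Tspan15 (0.705), Gjb1 (0.697), Ostf1 (0.691), Tmem125 (0.691), Ucma (0.685), Sept1 (0.683), Nkain1 (0.681) and Tmem98 (0.679). Of these 10, 0 belong to a pathway list, but only 84 of the 19520 genes ranked do, so the count says little. Among the 50 highest, 1 did. Mog is a myelin protein on the oligodendrocyte marker list, and Gjb1 encodes the gap junction protein connexin 32, made by oligodendrocytes and Schwann cells. Of other myelin genes on that list, Mbp ranked 53rd with 0.591 and Mobp 547th with 0.469. Among pathway genes Oas1a ranked highest, 15th with a rho of 0.654, followed by Rtp4, 52nd with 0.591. The median rho of the 84 pathway genes was 0.114, beside 0.0141 for all genes. The list of 10 was itself unsteady, with 6 of them kept when group means were taken off, 3 with the mitochondrial rRNA share regressed out and 2 without scaling factors.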

How the data were processed

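Total RNA libraries from 31 mouse half-brain homogenates (13 control, 18 deltamethrin, grouped by the agent label) were analysed. The authors deposited raw counts per Ensembl gene, with no normalization, for 48795 genes. Trimmomatic, HISAT2, SAMtools, MultiQC and the build GRCm38 are named in the submitters' processing notes, without versions. The counting tool, its gene models and its strand setting are not given in the sources used here. Columns were joined to samples through the titles. Of the gene IDs 99.3% were found in GENCODE M21, which gave coordinates and exon lengths.

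Genes were kept by filterByExpr (minimum count 10, minimum total 15), scaled by TMM factors and tested with edgeR (version 4.0.16, R 4.3.3; quasi-likelihood test with robust=TRUE and group as the only term, Benjamini-Hochberg over 19529 genes). Standard errors were obtained from the fold change and its F statistic. Log2 CPM used a prior count of 2. Correlations used permutation tests with 100000 resamples (scipy 1.17.1). The test was checked on simulated data. Depth ran from 17570311 to 38680621 counts per library, which sets the counting error of these low genes.

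Alternatives were scaling by RLE, by upper quartile or by nothing, no count filter, a mean count of at least 50, DESeq2 (1.42.0), limma voom (3.58.1), robust=FALSE, mitochondrial rRNA and endothelial covariates (the latter added), and leaving out each library. Besides the 9 genes, the text names from each pathway list the 2 highest by mean CPM and those with an unadjusted p-value under 0.05 (at most 4), and the 10 genes most like the 9; 2 genes of the lists are not reported by name here, and further genes were picked with their values in view. The genes and lists were chosen with earlier results of these data known.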

Additional observations from a re-analysis of the deposited data

How the results depend on the processing

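Neither the 9 genes nor the other pathway genes gave a call after adjustment: the number was 0 by the test as reported, by all 10 alternatives and by all 31 repeats with 1 library removed. The median log2 fold change of the 9 was 0.09, against -0.14 with a mean count of at least 50 (fewer genes tested), 0.12 without scaling factors, 0.048 with voom, 0.015 with the endothelial covariate and -0.0087 to 0.13 across the fits that left out 1 library, with the only negative value without deltamethrin replicate 2. At an unadjusted p-value under 0.05 the 9 gave 1 gene, 0 with a mean count of at least 50, where Rsad2 is not tested, 2 with voom (beside 4.34% of all genes) or the mitochondrial rRNA covariate (beside 9.2%), and 1 to 3 across the fits that left out 1 library, with 3 without deltamethrin replicate 10 (beside 6.59% of all genes, against 4.37% with all libraries) and 2 without control replicates 1, 3, 6 or 12 or deltamethrin replicates 4, 8, 9 or 14 (beside 3.98 to 7.13%). Of the pairs of genes 2 passed adjustment, against 1 without the 2 libraries farthest from the median. Without scaling factors the median of all genes moved from 0.0014 to 0.043.

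Of 1140 log2 fold changes of 28 genes under alternatives, 1113 had the sign and the call of the reported value and 27 had the other sign. Without scaling factors Irf9 was 0.028 and Pias1 0.056, and with voom Pias1 was 0.00049. With the endothelial covariate Irf9 was 0.015, Oasl2 -0.046, Ifnar1 -0.0089, Jak1 -0.035, Jak2 -0.0091, Cmpk2 -0.0066 and H2-D1 -0.027. When 1 library was left out Irf9 ran from -0.039 to 0.017, Oasl2 from -0.011 to 0.16, Ifnar1 from -0.0049 to 0.039, Jak2 from -0.0028 to 0.042, Cmpk2 from -0.0051 to 0.037, H2-D1 from -0.010 to 0.083 and Pias1 from -0.035 to 0.038. Ifit1 (0.09) was 0.053 at the lowest (control replicate 7 left out) and 0.17 at the highest (control replicate 8 left out), Isg15 was 0.12 without deltamethrin replicate 10 and Usp18 0.085 without deltamethrin replicate 13. The cause was not tested. No paired analysis was possible because numbers given here in sample order pair nothing. Depth limits the lowest genes most, with 7 to 48 counts per library for Rsad2.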
